A study of Arabidopsis thaliana and Nicotiana tabacum with 16 samples.

Results

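A set of 10 genes of iron uptake and storage was followed through 14 Arabidopsis Ribo-seq libraries: IRT1 (AT4G19690), FRO2 (AT1G01580), FIT (AT2G28160), F6'H1 (AT3G13610), NAS4 (AT1G56430), NRAMP3 (AT2G23150), PIC1 (AT2G15290), FER1 (AT5G01600), FER3 (AT3G56090) and FER4 (AT2G40300). They were taken by name from the 27628 genes of the count tables by a rule that uses no measured value, though with earlier results of these data known, to set iron uptake by the root against iron storage in the chloroplast. All 10 were present in the tables, and 4 act in root uptake, 2 in movement of iron inside the plant, 1 in chloroplast import and 3 in storage. All libraries came from whole seedlings of the wild type Col-0. The 3 MNase libraries (75, 150 and 300 U) and 3 RNase I libraries (62.5, 125 and 250 U) were made from 8-day seedlings grown with 1% sucrose in long days. The 3 further RNase I libraries (400, 550 and 700 U) and a repeat of the 700 U library came from 14-day seedlings grown in shorter days on a medium for which no sucrose is named. From 14-day seedlings also came the rRNA-depleted libraries V1 and V2, named after the version of the cocktail of depletion oligos, and 1 library each of a ligation-based and a ligation-free kit, all 4 digested with 600 U RNase I. A level here is the number of ribosome protected fragments (RPFs) counted over the coding sequence (CDS), scaled to 1000000 counts per library (CPM), and no mRNA measurement stands beside it.

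Iron in soil is mostly ferric and poorly soluble. Arabidopsis roots acidify the soil, release coumarins that mobilise ferric iron, reduce it at the cell surface and import ferrous iron, a programme that is induced when iron is short. Inside the plant, iron travels bound to ligands such as nicotianamine, passes in and out of vacuoles, and in green tissue goes mainly into the chloroplast. Ferritins are protein shells in plastids that hold iron in a safe form, and they accumulate when iron is plentiful.

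The libraries held between 2338819 and 11583740 counts over CDS, so that 3 counts, taken as the limit that a count of 0 allows, corresponded to 0.259 to 1.28 CPM. Each dose was 1 library, so the doses of a nuclease stand as its repeats, the spread between them includes any effect of the dose, and the sources do not say whether they came from separate plants, so that p-values measure only the spread between these libraries. V1 stood apart from its label. Of the 7797 genes that differed between 14-day and 8-day seedlings, 91.5% lay nearer to the 8-day RNase I mean in V1, against 61.1% in V2, 55.1% in the ligation-free, 53.6% in the ligation-based and 17% in the repeat library. In the MNase libraries of 8-day seedlings this share was 86.6 to 88.4%. Results that rest on V1 are therefore given with and without it. A list of 10 root markers and a list of 9 leaf markers were counted in the same libraries. All of the root markers had counts in every 8-day library and in V1, whereas 1 to 4 of them were at 0 in each of the other 14-day libraries. All of the leaf markers had counts in every library.

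The sequences of the genes decide how far their counts can be told apart, and the 3 ferritins are the closest relatives among them. The longest run of identical bases in 2 ferritin CDSs was 32 bases, longer than a typical RPF, in FER3 (CDS positions 445 to 476, chromosome 3) and FER4 (CDS positions 451 to 482, chromosome 2). FER1 shared at most 16 bases with FER3 and 17 bases with FER4. A fragment that lies wholly within the run of FER3 and FER4 cannot be placed. The runs of FER1, shown beside it, are shorter than the RPFs that were selected.
FER3 and FER4: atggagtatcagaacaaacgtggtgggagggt
FER1 and FER3: agcctttcgaagaggt
FER1 and FER4: atcaatgtggaatacaa
IRT1 shared at most 22 bases with its neighbour IRT2. Of all windows of 28 bases within the exons, 2.54% in NRAMP3, 1.29% in IRT1, 0.529% in NAS4, 0.194% in F6'H1 and none in the other members occurred elsewhere in the genome. Windows across exon borders were not counted, and the run shared by FER3 and FER4 lies across such a border in both genes. At 28 bases, nearly all windows of the members thus occur once in the genome. Shorter fragments and alignments with mismatches, which the authors allowed, were not covered, so reads shared between relatives are not excluded.

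The ferritin genes are known to be controlled at the level of transcription, and the 250 bases before each gene start were searched for CACGTG, the palindromic G-box bound by bHLH and bZIP factors, which reads the same on both strands. It occurred in 2 of the 10 members, FER3 and FER4, and in 1780 of 27444 such windows (6.49%). The windows below, from the minus strand of RefSeq TAIR10.1, show it in capitals.
FER3 (chr3:20816094-20816123): atcgtatccatcCACGTGtcaacaatccac
FER4 (chr2:16833346-16833375): atctcgtacgtaCACGTGtctctcatccgc
The motif begins 76 bases before the annotated start of FER3 and 69 bases before that of FER4. FER1 had no such match in its window, which says only that these letters are not in it.

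Levels of the members spanned more than an order of magnitude. Per kb of CDS, in the 3 RNase I libraries of 8-day seedlings, FER1 stood highest at 67.6 ± 3.6 CPM per kb (SD, n = 3), followed by PIC1 at 65.2 ± 6.1 and FER3 at 59.6 ± 7.9. These neighbours did not differ by more than their spread. NAS4 (43.7 ± 2.4), FER4 (41.3 ± 10.0) and IRT1 (40.2 ± 1.1) came next. FER4 overlapped with both, while the 3 values of IRT1 lay just below those of NAS4. F6'H1 (15.4 ± 1.0) and FRO2 (13.9 ± 4.0) lay lower, then NRAMP3 (8.77 ± 1.54) and FIT (2.48 ± 1.07). In the 3 RNase I libraries of 14-day seedlings the order was FER1 (145 ± 9 CPM per kb), FER4 (64.1 ± 5.6), FER3 (43.7 ± 9.4), PIC1 (42.2 ± 6.6), NAS4 (19.9 ± 2.0), NRAMP3 (8.39 ± 1.20), IRT1 (7.73 ± 1.10), F6'H1 (6.25 ± 0.99), FRO2 (2.80 ± 0.47) and FIT (0.915 ± 0.958). IRT1 had moved from the level of FER4 to that of NRAMP3.

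**Figure D1:**
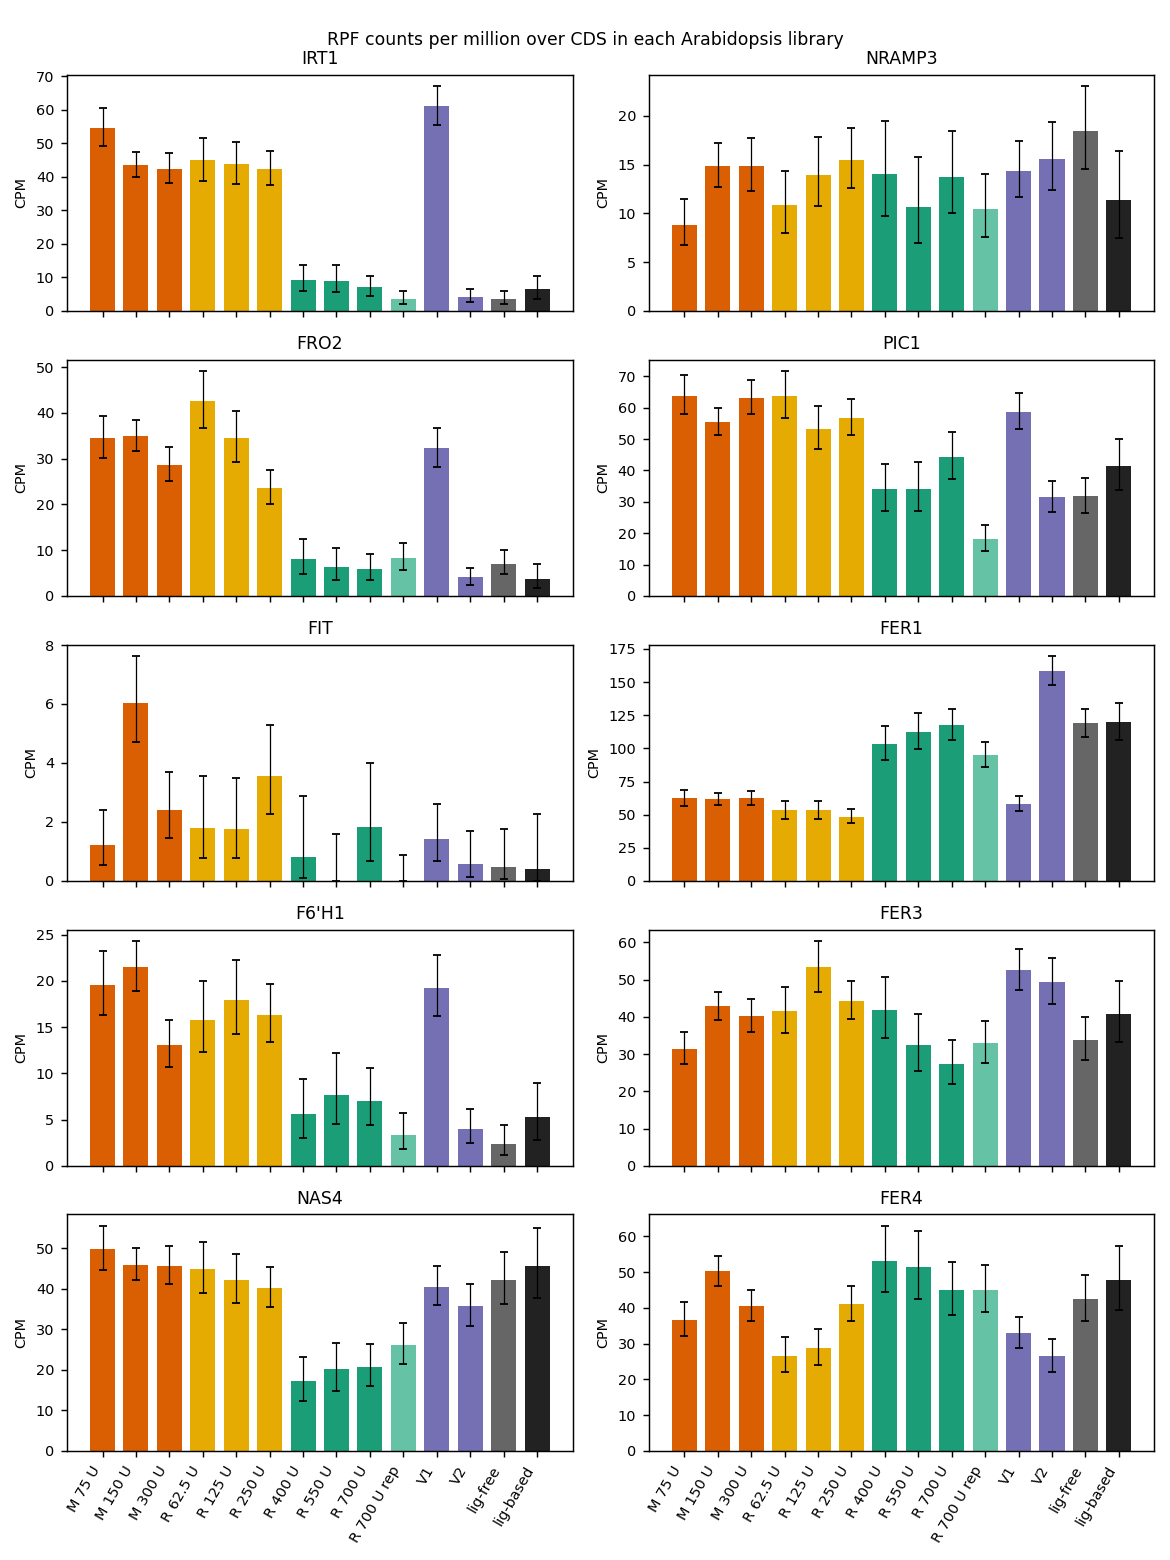
Bars give the CPM over CDS of each iron gene in each of the 14 libraries (M, MNase; R, RNase I; rep, repeat; lig, ligation; colours mark the groups), and whiskers are exact 95% binomial intervals, which cover counting error only. IRT1, FRO2 and F6'H1 are high in the 6 libraries of 8-day seedlings and in V1 and low in the other 7, and FER1 shows the reverse order.

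The root uptake genes were the members that differed most between the libraries. IRT1 (chr4:10707487-10708720, plus strand), the main importer of ferrous iron in the root epidermis, measured 44.9, 43.8 and 42.4 CPM in the 8-day RNase I libraries and 9.19, 8.98 and 7.03 CPM in the 14-day RNase I libraries. The groups did not overlap, and the difference was a log2 fold change of -2.42 ± 0.18 (SE, edgeR adjusted p = 6.7e-18), that is 5.37-fold lower at 14 days. FRO2 (chr1:209161-212807, plus strand), the ferric reductase that supplies IRT1, measured 42.6, 34.5 and 23.6 CPM at 8 days and 7.99, 6.41 and 5.80 CPM at 14 days. Its values spread over the doses at 8 days, yet its lowest 8-day library lay above every 14-day one (log2 fold change -2.33 ± 0.22, edgeR adjusted p = 1.5e-13). F6'H1 (chr3:4449448-4450613, plus strand), the enzyme at the entry to coumarin synthesis, measured 15.8, 17.9 and 16.3 CPM at 8 days and 5.59, 7.70 and 7.03 CPM at 14 days. Its fall was smaller on the log2 scale, at -1.32 ± 0.24 (edgeR adjusted p = 4.9e-06), and the groups did not overlap.

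FIT (chr2:12004713-12006000, plus strand), the bHLH factor that activates IRT1 and FRO2, was near the limit of detection. It had 8, 8 and 24 counts in the 8-day RNase I libraries and 2, 0 and 6 counts in the 14-day ones, and it did not reach the minimum of 10 counts in 3 libraries, so its change was not tested. In CPM the groups overlapped. The highest FIT value of any library was 6.04 CPM (70 counts) in the MNase 150 U library.

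Of the 10 members, 9 were tested between 14-day and 8-day seedlings, and 8 passed an adjusted p of 0.05, against 50.4% of all 15460 genes tested. Higher at 14 days were 2 members, FER1 and FER4, beside 25.3% of all genes, and lower were 6, beside 25.1%. In 7 of the 9 the groups did not overlap, as they did not for 56.4% of all genes tested (29.5% higher and 26.9% lower at 14 days). A large part of the measured translatome thus differed between these groups, which differ in age, light cycle, medium and dose at once, and these cannot be told apart. Lysates were of whole seedlings, so fewer root cells and fewer RPFs per root cell cannot be told apart either. Without mRNA measurements, less mRNA and less translation cannot be separated.

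NAS4 (chr1:21137023-21137994, plus strand) encodes a nicotianamine synthase, whose product carries iron and other metals in the phloem and between cells. It measured 44.9, 42.2 and 40.2 CPM at 8 days and 17.2, 20.1 and 20.8 CPM at 14 days. The groups were well apart (log2 fold change -1.15 ± 0.15, edgeR adjusted p = 2.1e-09). In V2 and both kits, also of 14-day seedlings, NAS4 measured 35.7 to 45.7 CPM, nearer to the 8-day values. NRAMP3 (chr2:9856425-9858565, minus strand), which exports iron from vacuoles, measured 10.8, 13.9 and 15.4 CPM at 8 days and 14.0, 10.7 and 13.7 CPM at 14 days. It was the only tested member past no threshold in this comparison, with overlapping groups and a log2 fold change of -0.10 ± 0.22 (edgeR adjusted p = 0.73).

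PIC1 (chr2:6642515-6644011, minus strand), described as an iron permease of the inner chloroplast envelope and annotated in RefSeq as TIC21, measured 63.9, 53.3 and 56.7 CPM at 8 days and 34.0, 34.2 and 44.3 CPM at 14 days. All 14-day values were below all 8-day values (log2 fold change -0.64 ± 0.12, edgeR adjusted p = 1.6e-05). With the repeat of the 700 U library in place of the first, the fold change of PIC1 was -1.11 (edgeR adjusted p = 1.0e-06).

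The 3 ferritins did not move together. FER1 (chr5:228152-229594, minus strand), the ferritin known to respond most to excess iron in leaves, measured 53.3, 53.3 and 48.5 CPM at 8 days and 103, 112 and 118 CPM at 14 days. It rose 2.12-fold with groups far apart (log2 fold change 1.08 ± 0.10, edgeR adjusted p = 8.9e-15). FER4 (chr2:16831504-16833214, minus strand), found in plastids and also in mitochondria, measured 26.6, 28.7 and 41.0 CPM at 8 days and 53.1, 51.3 and 44.9 CPM at 14 days. It was higher at 14 days by a smaller amount (log2 fold change 0.57 ± 0.14, edgeR adjusted p = 0.00041). In the MNase libraries of 8-day seedlings FER4 measured 36.7, 50.2 and 40.6 CPM, which overlapped with the 14-day values. FER3 (chr3:20814353-20815984, minus strand), a plastid ferritin of leaves, measured 41.5, 53.3 and 44.2 CPM at 8 days and 41.9, 32.5 and 27.5 CPM at 14 days. It was lower at 14 days (log2 fold change -0.49 ± 0.14, edgeR adjusted p = 0.0021), although the 400 U library overlapped with the 8-day group. In V2, also of 14-day seedlings, FER3 (49.3 CPM) and FER4 (26.4 CPM) lay outside the range of these 14-day libraries. Both kits had FER3 at 33.9 and 40.9 CPM and FER4 at 42.4 and 47.7 CPM, within or near that range. FER1 made up 36.3 to 43.9% of the ferritin counts in the 8-day RNase I libraries and 52.1 to 61.9% in the 14-day ones. FER2, the ferritin of seeds, had 0 to 16 counts per library and was not tested between the ages.

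**Figure D2:**
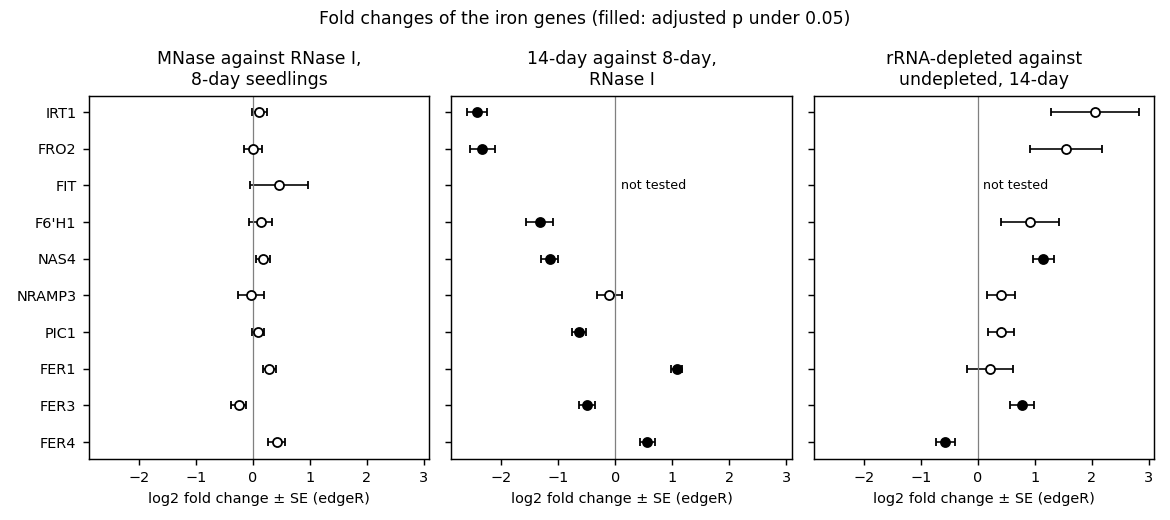
Points give edgeR log2 fold changes of the iron genes, bars their SE, and filled points an adjusted p under 0.05, in the comparisons of nuclease (3 against 3 libraries), age (3 against 3) and depletion (2 against 3). No point is filled for the nuclease, 8 are filled for the age, and the bars of IRT1 and FRO2 are widest for the depletion.

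The balance of uptake and storage was set out in each library as the log2 ratio of the summed CPM per kb of IRT1, FRO2, FIT and F6'H1 to that of FER1, FER3 and FER4. It was -1.06, -1.26 and -1.35 in the 8-day RNase I libraries and -3.86, -3.82 and -3.84 in the 14-day RNase I libraries. The group means differed by -2.61, and no test was made on this sum over chosen genes. The uptake sum fell from 72.1 ± 4.0 to 17.7 ± 0.4 CPM per kb (SD, n = 3), while the ferritin sum was 169 ± 10 at 8 days and 253 ± 6 at 14 days. Most of the shift in the ratio therefore came from the uptake genes.

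Root markers moved in the same direction as the uptake genes. Of the 10 root markers 7 were tested between the ages, and all 7 were lower at 14 days, beside 25.1% of all genes. Their median log2 fold change was -2.05, beside 0.01 over all genes tested. PYK10, a beta-glucosidase of root ER bodies (1695 ± 32 CPM at 8 days and 851 ± 43 at 14 days, SD, n = 3, after TMM), RCI3, a root peroxidase (log2 fold change -2.05), ESB1, needed for the Casparian strip (-2.07), and LRX1, a root hair wall protein (-3.04), had the smallest adjusted p. EXPA7, NRT2.1 and EXPA18 had too few counts to test. The root marker sum was 1110 to 1163 CPM per kb in the 8-day RNase I libraries and 527 to 596 in the 14-day ones, and PYK10 alone made up 92.8 to 98.8% of it in the 14 libraries. Without PYK10, which was left out after its values were seen, the sum was 58.2 to 73.0 CPM per kb at 8 days and 19.1 to 20.2 at 14 days. The ratio of the uptake sum to that sum was 1.04, 1.06 and 1.16 in the 8-day and 0.933, 0.894 and 0.905 in the 14-day RNase I libraries. The RNase I groups did not overlap, but this ratio differed far less than the uptake sum itself. With MNase at 8 days the ratio was 1.02, 1.32 and 0.921, and the last lay within the range of the 14-day RNase I libraries. Those 14-day libraries held only 43, 45 and 56 counts of the 9 markers and 59, 54 and 71 of the uptake genes. Counting error of the ratio was not computed. In the repeat of the 700 U library the ratio was 0.628, beside 0.905 in the first library from the same RPFs. It was 0.613 in the ligation-free and 0.786 in the ligation-based library, 1.05 in V2 and 1.32 in V1. Relative to all 10 root markers, which PYK10 dominates, the log2 ratio was -4.04 to -3.95 at 8 days and -5.05 to -4.93 at 14 days. The part of root content in the fall of the uptake genes was not tested further. Of the 9 leaf markers 8 were higher at 14 days, beside 25.3% of all genes (median log2 fold change 0.24). They were led by PRK (0.77), GAPA (0.72), RCA (0.61) and CAB1 (0.24). FER1 had risen by more than any of these.

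**Figure D3:**
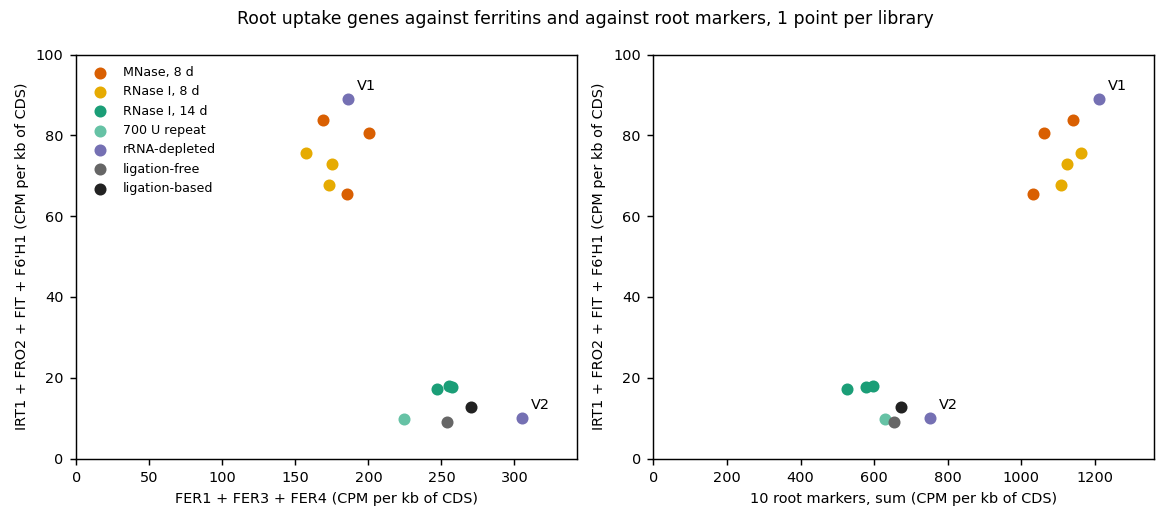
Each point is a library, with the summed CPM per kb of the 4 root uptake genes against that of the 3 ferritins (left) and of the 10 root markers (right), and colours mark the groups. V1 lies with the 8-day libraries, at 88.9 CPM per kb of uptake genes, and V2, the repeat and both kits lie at 9.01 to 12.7, below the other 14-day libraries.

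Other iron genes were taken from 4 lists. Between the ages, 25.3% of all genes tested were higher and 25.1% lower at 14 days. Of 19 regulators of the iron-deficiency response 11 were tested between the ages, of which 2 were higher and 6 lower at 14 days (median log2 fold change -0.51). URI (bHLH121), a bHLH factor upstream of FIT, rose from 8.93 ± 0.59 to 52.3 ± 8.4 CPM (SD, n = 3, after TMM, log2 fold change 2.53, edgeR adjusted p = 4.8e-20), and ILR3, a bHLH partner of it, rose by 0.64. In V1, V2 and both kits, also labelled as 14-day seedlings, URI stood at 5.26 to 8.97 CPM, near the 8-day level. BTSL1, a ubiquitin ligase that acts on FIT (-2.79), and IMA2, a small peptide of the deficiency response (-1.81), were lower. The bHLH factors that pair with FIT (bHLH38, bHLH39, bHLH100 and bHLH101) had too few counts to test.

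Of 11 other genes of root iron acquisition 8 were tested. At 14 days 7 were lower, beside 25.1% of all genes, and none higher, beside 25.3% (median -0.77). They included AHA2, the main proton pump of the root surface (-0.52), CYP82C4, an oxidase of coumarins (-1.90), ABCG37, a coumarin exporter (-1.44), and MTP3, a vacuolar importer of zinc that is induced with IRT1 (-2.73). IRT2 had 0 counts in all 3 undepleted 14-day libraries and was not tested. NRAMP1, another root importer, was the tested gene that did not pass (-0.02, edgeR adjusted p = 0.88).

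Of 14 other genes of iron movement and vacuolar storage 12 were tested, with 3 higher and 5 lower (median -0.26). Lower were OPT3, which loads iron into the phloem (-0.63), and the nicotianamine synthases NAS2 (-2.43) and NAS1 (-0.98), whose counts may share reads. YSL3, a transporter of metal nicotianamine complexes, was higher (0.97). Of 14 other chloroplast iron genes 13 were tested, with 6 higher and 2 lower (median 0.03). FRO7, the ferric reductase of the chloroplast (1.08), IREG3, a plastid metal transporter (1.10), and NFU3, a scaffold for iron-sulfur clusters (1.36), were higher, and SUFD, of the plastid cluster assembly complex, was lower (-0.73). The root list was thus on the lower side in all that passed, and the chloroplast list was split. In a fit of V2 alone against the undepleted 14-day libraries, several of the genes named here went the other way. The log2 fold changes were -1.40 for NFU3, -0.64 for IREG3, -2.30 for YSL3, 0.52 for SUFD, 1.83 for NAS1 and 0.61 for OPT3. NAS2 was at 0.26, and FRO7 at 0.49 kept its direction. The reason was not tested.

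**Figure D4:**
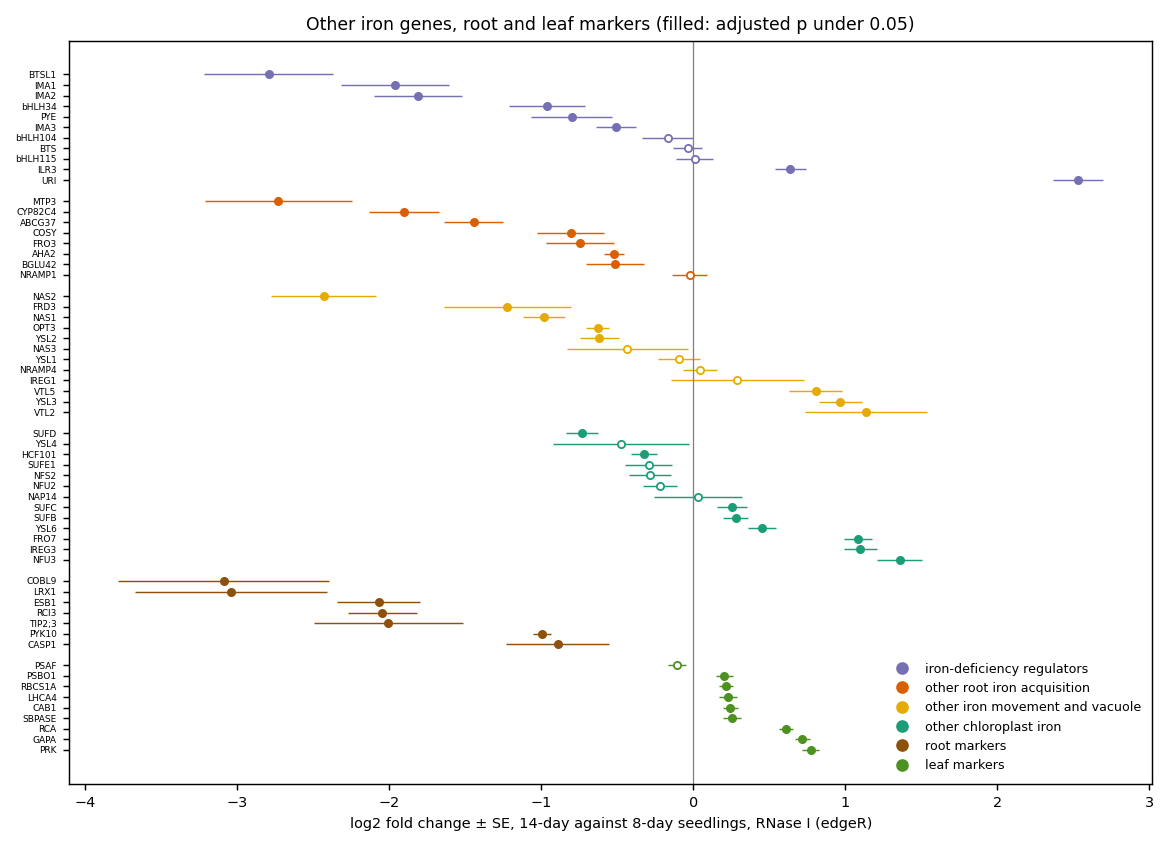
Points give edgeR log2 fold changes between 14-day and 8-day seedlings for every tested gene of the 4 lists of other iron genes and of the root and leaf markers, bars their SE, and filled points an adjusted p under 0.05. All filled points of the root acquisition list and of the root markers lie below 0, and the chloroplast list lies on both sides.

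With the nuclease, no member passed the test. In the MNase libraries of 75, 150 and 300 U, IRT1 measured 54.5, 43.5 and 42.3 CPM, beside the 42.4 to 44.9 CPM of the RNase I libraries of 8-day seedlings. FRO2 measured 34.6, 34.9 and 28.7 CPM with MNase and F6'H1 19.5, 21.5 and 13.0 CPM, all overlapping with RNase I. FER1 measured 62.3, 61.9 and 62.3 CPM with MNase, above all 3 RNase I libraries. None of the 10 members passed an adjusted p of 0.05 in edgeR or in DESeq2, where edgeR called 1.94% of 16738 genes (1.3% higher and 0.633% lower with MNase), and 2 members had an unadjusted p under 0.05. These were FER4 (log2 fold change 0.42 ± 0.15, edgeR adjusted p = 0.17) and FER1 (0.29 ± 0.11, edgeR adjusted p = 0.21). FER4 measured 36.7, 50.2 and 40.6 CPM with MNase, and without the RNase I 250 U library its fold change was 0.65 and passed (edgeR adjusted p = 0.033).

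NAS4 (45.7 to 49.8 CPM) and FER1 were the members whose MNase values lay wholly above those with RNase I, as those of 7.7% of the genes tested did. No member lay wholly below, as 9.3% of all genes did, and 17% did not overlap in either direction. FER3 had 31.4, 42.8 and 40.2 CPM with MNase and overlapped. PIC1 measured 55.4 to 63.8 and NRAMP3 8.84 to 14.8 CPM with MNase, both overlapping with RNase I. The balance of uptake to storage was -1.01, -1.31 and -1.50 with MNase, a difference of -0.05 from RNase I, within the spread over doses. Among the other iron genes only YSL2, a metal nicotianamine transporter, passed (log2 fold change -0.47, edgeR adjusted p = 0.032). None of the 9 root markers tested passed in edgeR, and 5 of the 9 leaf markers were higher with MNase, led by CAB1 (0.38). The comparison of the ages uses the same 3 RNase I libraries of 8-day seedlings.

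The depleted libraries V1 and V2 gave opposite values for the uptake genes. IRT1 measured 61.1 CPM in V1 (431 counts) and 4.24 CPM in V2 (22 counts), on either side of the 7.03 to 9.19 CPM of the undepleted 14-day libraries. The ratio was 14.4, with an exact 95% counting interval of 9.39 to 23.2. FRO2 (32.3 and 4.05 CPM, ratio 7.98, interval 5.10 to 13.1) and F6'H1 (19.3 and 4.05 CPM, ratio 4.76, interval 2.99 to 7.94) were split in the same way. FER1 was split the other way, with 58.4 CPM in V1 and 159 CPM in V2 (ratio 0.368, interval 0.326 to 0.415). PIC1 measured 58.6 and 31.4 CPM (ratio 1.87, interval 1.55 to 2.25). With at least 10 counts in both libraries, 9 members could be compared, of which 3 were at least 2-fold higher and 1 at least 2-fold lower in V1, beside 10.9% and 3.69% of 14682 genes (14.6% in either direction).

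The other members differed less between V1 and V2. The intervals of the ratio included 1 for NAS4 (1.14, interval 0.941 to 1.37), NRAMP3 (0.916, interval 0.677 to 1.24) and FER3 (1.07, interval 0.906 to 1.25), and left it out narrowly for FER4 (1.24, interval 1.00 to 1.55). FIT had 10 and 3 counts. The balance of uptake to storage was -1.07 in V1, as in 8-day seedlings, and -4.94 in V2, a difference of 3.87. Against the 8-day RNase I libraries, V1 lay within their range for 6 members, above it for 3 (IRT1, F6'H1 and FER1) and below it for FIT. Against the undepleted 14-day libraries it lay within the range for FIT only. With 1 library per cocktail, V1 and V2 are compared as libraries, and cocktail and plant material cannot be told apart.

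Pooled, V1 and V2 differed from the 3 undepleted 14-day libraries in 3 of the 9 members tested, beside 22.6% of 15532 genes (10.9% higher and 11.7% lower in the depleted libraries). Of the genes called, 48.3% were higher in the depleted libraries, or 30.6% when scaled to library totals. In 4 of the 9 members the groups did not overlap (NAS4, NRAMP3 and FER3 above, FER4 below), beside 50.5% of all genes (17.7% above and 32.8% below). The undepleted libraries are the ones used in the comparison of the ages. NAS4 was higher in the depleted libraries, at 40.5 CPM in V1 and 35.7 CPM in V2 against 17.2 to 20.8 CPM (log2 fold change 1.15 ± 0.18, edgeR adjusted p = 0.0044). FER3 was higher, at 52.6 and 49.3 against 27.5 to 41.9 CPM (0.78 ± 0.20, edgeR adjusted p = 0.028), and FER4 lower, at 32.9 and 26.4 against 44.9 to 53.1 CPM (-0.57 ± 0.17, edgeR adjusted p = 0.042). For these 3 genes both depleted libraries lay on the same side of all undepleted ones. Without V1 4 members passed, beside 42% of 14487 genes, and without V2 8 did, beside 39.8% of 14759 genes. IRT1 had a pooled log2 fold change of 2.06 ± 0.77 (edgeR adjusted p = 0.087), which was -0.64 without V1 and 2.94 without V2. FER1 had 0.22 ± 0.41 (edgeR adjusted p = 0.74), which was 0.83 without V1 and -0.87 without V2, and -0.04 when scaled to library totals, a scaling that moved the median of all genes from 0.03 to -0.14. Each of the FER3 and FER4 calls was lost when any of the 3 undepleted libraries was left out, and NAS4 passed in all of these fits. The fold changes stayed close, at 0.65 to 0.94 for FER3 and -0.63 to -0.53 for FER4 over all fits with 1 library left out.

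The same pooling of V1 and V2 was applied to the other iron genes, where 10.9% of all genes were higher and 11.7% lower. Of the regulators 2 of 11 were lower (URI and ILR3) and none higher, and of root acquisition 2 of 7 were higher (COSY, of coumarin synthesis, and FRO3, a reductase). Of movement genes 2 of 12 were higher (NAS1 and OPT3) and 2 lower (VTL5 and YSL3), and of chloroplast genes 1 of 13 was higher (SUFD) and 2 lower (NFU3 and IREG3). The medians of these lists were 0.13, 1.00, 0.23 and 0.19, beside 0.03 over all genes. Without V1 they were -0.50, 0.01, 0.57 and 0.21, beside -0.03, and without V2 0.17, 0.69, -0.08 and 0.12, beside -0.02. The root acquisition list summed to 296 CPM per kb in V1, 172 in V2 and 192 to 202 in the undepleted libraries. Without V1, the regulators had 1 higher and 4 lower of 9, root acquisition 2 higher and 1 lower of 7, movement 4 higher and 2 lower of 11, and chloroplast genes 4 higher and 2 lower of 13, beside 20.7% and 21.2% of all genes. The 11 genes named above kept the direction of their fold change without V1 and without V2. They had been picked by the pooled fit of the same libraries, so this is no separate support. All 11 had changed in the opposite direction between the ages, a comparison that uses the same undepleted libraries. Of 4 root markers tested PYK10 was higher (0.95, edgeR adjusted p = 0.0055), and no leaf marker passed in edgeR. Without V1 PYK10 was at 0.76, CASP1, of the Casparian strip, was lower, and 5 of 9 leaf markers were higher. Without V2 3 of 4 root markers were higher and 6 of 9 leaf markers lower.

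Between both kits, the interval of the ratio included 1 in 7 of the 8 members with at least 10 counts in each. IRT1 measured 6.47 CPM (16 counts) in the ligation-based and 3.64 CPM (15 counts) in the ligation-free library, a ratio of ligation-free to ligation-based of 0.562 with an interval of 0.259 to 1.21. F6'H1 had a ratio of 0.461 (interval 0.181 to 1.14), the only one past 2-fold of these 8, beside 3.61% of 13019 genes in either direction, 1.58% lower and 2.03% higher. Its interval includes 1, so that no difference was detectable at this depth. FER1 measured 120 and 119 CPM (ratio 0.994, interval 0.859 to 1.15), the closest match of the members. NRAMP3 was the member whose interval left out 1 (11.3 and 18.4 CPM, ratio 1.63, interval 1.04 to 2.61). The balance of uptake to storage was -4.41 and -4.82.

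NAS4 set the kits apart from the undepleted 14-day libraries. It measured 45.7 CPM in the ligation-based and 42.2 CPM in the ligation-free library, and with V1 and V2 all 4 depleted libraries lay at 35.7 to 45.7 CPM, near the 40.2 to 49.8 CPM of the 8-day libraries, whereas the undepleted 14-day libraries lay at 17.2 to 20.8 and the repeat at 26.1 CPM. FER1 (119 to 120 CPM) and IRT1 (3.64 to 6.47 CPM) of the kits lay with the 14-day libraries instead.

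The repeat of the 700 U library, made from the same RPFs with another number of PCR cycles, shows the technical spread of the members. The median absolute log2 ratio of repeat to first over the 9 members with counts in both was 0.40. FER4 (ratio 1.00, interval 0.803 to 1.25) and FER3 (1.20, interval 0.911 to 1.58) had intervals that included 1. PIC1 fell from 44.3 to 18.2 CPM (145 and 75 counts, ratio 0.410, interval 0.306 to 0.545), more than counting error allows and more than its difference between the ages. F6'H1 was also more than 2-fold lower (ratio 0.482, interval 0.230 to 0.978), so that 2 of 9 members were past 2-fold, beside 6.43% of 13680 genes (3.33% lower and 3.11% higher). IRT1 had a ratio of 0.517 (interval 0.251 to 1.03) and FER1 0.809 (interval 0.701 to 0.933).

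**Figure D5:**
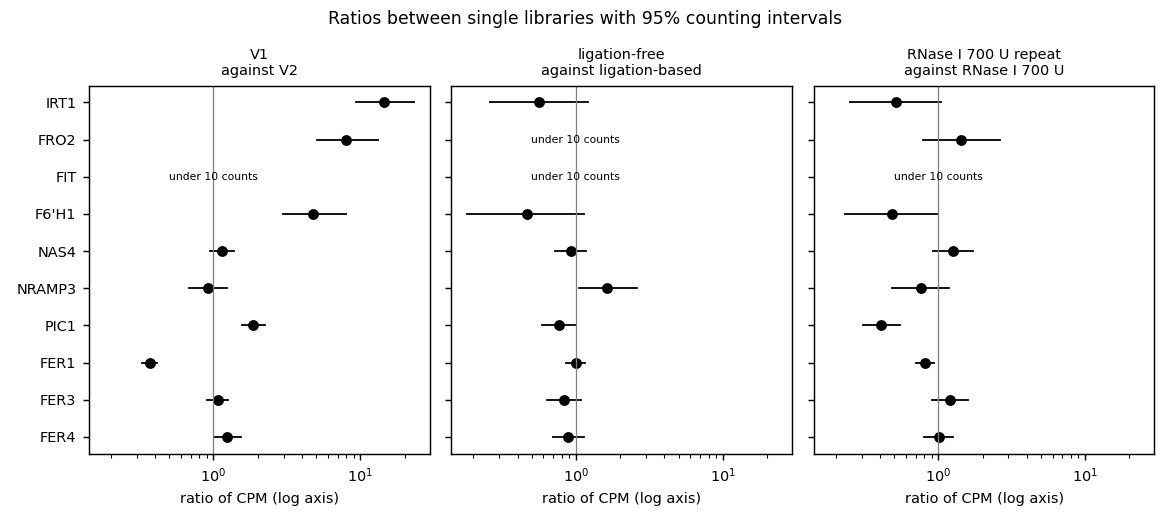
Points give the ratio of CPM between single libraries on a log axis and bars the exact 95% counting interval, with ratios left out where a library had under 10 counts. IRT1, FRO2 and F6'H1 lie far right and FER1 far left only for V1 against V2, and PIC1 lies left of 1 for the repeat.

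The genes whose log2 CPM followed that of IRT1 most closely over 11 libraries, among 12109 nuclear genes with at least 10 counts in each, were TBL36 (Pearson r = 0.993), AT2G38380 (0.989), SOT12 (0.989), AT3G15356 (0.989) and TIC110 (0.987). SOT12, a sulfotransferase, measured 72.5 to 96.9 CPM in the 8-day libraries and V1 and 5.78 to 17.2 CPM in the others. TIC110, a part of the chloroplast import machinery, ran from 302 to 350 and from 213 to 247 CPM, a much smaller difference with the same order. For FER1 they were FBA5 (0.990), P5CS1 (0.986), GLDP2 (0.977), COR413-PM1 (0.974) and CAT2 (0.973). FBA5, a fructose-bisphosphate aldolase, measured 17.1 to 29.3 CPM in the 8-day libraries and V1, 181 to 235 CPM in the undepleted 14-day libraries and 588 CPM in V2. P5CS1, of proline synthesis, ran from 42.3 to 54.2 in the first set and from 146 to 268 CPM in the others. Without V1, over 10 libraries, r was 0.986 to 0.993 for the genes named with IRT1 and 0.974 to 0.989 for those named with FER1. The libraries fall into separate clusters, so these values describe their order and carry no test.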

How the data were processed

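The deposited files hold whole-number counts of RPFs over CDS per gene, which the authors made and did not normalize. Adapters and molecular identifiers had been removed with cutadapt, reads matching rRNA, tRNA or snoRNA set aside with STAR, the rest aligned to TAIR10 with 1 alignment kept, and counted with featureCounts on the sense strand, multi-mapping reads included. Undepleted RPFs were selected over a wider range of sizes than depleted ones. The version of each tool was not given in the sources used here. Libraries of tobacco (2) were not analysed. Sequences came from RefSeq TAIR10.1, which holds 99.98% of the 156515 CDS segments of the tables at the same coordinates. No tables of promoter or protein sequences were used.

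For the tests, edgeR 4.0.16 (R 4.3.3) was used with TMM normalization and quasi-likelihood F tests. Genes needed 10 or more counts in 3 libraries, or in 2 for the depletion comparison, with Benjamini-Hochberg adjustment over all genes tested and a threshold of 0.05. The SE is the absolute log2 fold change divided by the square root of the F statistic. The repeat of the 700 U library was left out of the fits. CPM of single libraries are scaled to the library total. Intervals are exact binomial (Clopper-Pearson, 95%, scipy 1.17.1) and cover counting error only. In simulated counts for the comparison of the ages (15390 genes tested), edgeR recovered 96 of 98 genes changed by 2 and 74 of 98 changed by 1 on the log2 scale, and called 7 unchanged genes. For the depletion it recovered 96 of 96 changed by 2 but only 53 of 94 changed by 1. Every gene was simulated with the same fixed dispersion, so a spread like that between V1 and V2 was not covered. DESeq2 1.42.0, scaling to library totals, nuclear genes only, no filter, all 11 libraries in 1 fit, the repeat in place of the first 700 U library and leaving out each library were tried as alternatives. The lists without V1 or V2, the correlations without V1 and the counts over all genes under each alternative, were added after the data were seen. The members and the lists were chosen with earlier results of these data known. All 10 members are named. Of each list up to 4 genes with the smallest adjusted p among those that passed are named per comparison, and genes named beyond this, including those too low to test, were chosen after their values were seen. Plots were drawn with matplotlib 3.10.9.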

Additional observations from a re-analysis of the deposited data

Results flagged for a closer look

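V1 and V2 lay on opposite sides of all 3 undepleted 14-day libraries for 5 members, and this difference was not tested, since each cocktail has 1 library. The log2 ratio of CPM, V1 to V2, was 3.85 for IRT1, 3.00 for FRO2, 2.25 for F6'H1 and 0.90 for PIC1, which were higher in V1, and -1.44 for FER1, which was lower in V1. In V1 the sum of 9 root markers without PYK10 was 67.6 CPM per kb, beside 58.2 to 73.0 with RNase I at 8 days, and in V2 it was 9.43, beside 19.1 to 20.2 in the undepleted 14-day libraries. The part of root content in the split was not tested.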

How the results depend on the processing

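Between the ages, 8 members passed under each of the other settings and with each library left out (of 9 tested, or of 10 with no filter on low counts, where FIT was tested and did not pass), and of the log2 fold changes that of NRAMP3 turned (range -0.26 to 0.014 with 1 library left out). The difference in the balance of uptake to storage, -2.61, was -2.21 with NAS4 added to uptake, -2.26 without IRT1, -2.36 with PIC1 added to storage, -2.12 without FER1 and -2.84 with the repeat library, and -2.68 to -2.53 with 1 library left out. For V1 against V2 it was 3.87, or 3.15 without IRT1 and 2.99 without FER1.

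Between the nucleases, leaving out 1 library gave 0 to 1 members past the threshold in edgeR (1 to 2 at an unadjusted p under 0.05; with all libraries DESeq2 gave 0) and 131 to 403 genes. The count of genes, 324, was 0 with all 11 libraries in 1 fit of edgeR, where 1189 genes had an unadjusted p under 0.05, and 400 in DESeq2. The small fold change of FRO2 turned to -0.0037 in DESeq2 and to -0.017 with library totals. With 1 library left out, the ranges that cross 0 were -0.0070 to 0.18 for IRT1, -0.21 to 0.21 for FRO2, -0.017 to 0.33 for F6'H1 and -0.16 to 0.15 for NRAMP3. The difference in balance, -0.05, was 0.048 without FER1 and -0.18 to 0.062 with 1 library left out.

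For the depletion, 3 members passed, but 5 with no filter on low counts, 5 with all 11 libraries in 1 fit, and 1 to 8 with 1 library left out, where 1120 to 6080 genes passed in place of 3505. With 1 library left out, log2 fold changes ran from -0.64 to 2.94 for IRT1, -0.40 to 2.33 for FRO2, -0.42 to 1.56 for F6'H1 and -0.87 to 0.83 for FER1, and the difference in balance, 0.83, ran from -1.10 to 2.77. The extremes are the fits without V1 or V2, in which the lone library is assumed to vary like the others. FER1 was -0.040 with library totals. The cause of these changes was not tested.

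No paired analysis was possible because the numbers of the libraries name doses of different nucleases or cocktails, which the labels do not pair. Low counts limit FIT (0 to 70) and, in the 14-day libraries other than V1, IRT1, FRO2 and F6'H1.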

Other observations

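URI, the bHLH factor upstream of FIT, was high only in the undepleted libraries of 14-day seedlings. It measured 63.1, 49.6 and 46.1 CPM in the 400, 550 and 700 U libraries and 58.4 CPM in the repeat. In V1 and V2 it measured 7.51 and 7.71 CPM, in the ligation-free library 8.97 and in the ligation-based library 5.26 CPM, beside 5.61 to 11.3 CPM in the 8-day libraries. The 4 libraries from depleted RPFs thus lay at the 8-day level for this gene, as they did for NAS4, while IRT1 of V2 and of both kits did not. This was seen after the values were known and was not tested.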
